A study of Homo sapiens with 18 samples.

Results

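The genes described here encode the enzymes and transporters of phospholipid and triglyceride synthesis, 35 genes in all, of the 19775 genes that have a probe set of their own on the array. A total of 15 genes form the choline branch, from choline uptake to phosphatidylcholine and its remodelling, and 20 genes form the branch from phosphatidic acid to triglycerides. They were chosen by name and function, and each gene was represented by the brightest of its probe sets, that is, the one with the highest mean log2 signal over all 18 arrays. All 35 genes were measured. Together they had 88 probe sets among the 54675 on the array, 8 genes having 1 probe set and 27 genes more than 1.

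A549 cells, an epithelial line established from a human lung carcinoma, were grown at an air-liquid interface and kept for 72 h in a flow-through chamber. Formaldehyde was set to 0, 0.1 or 0.5 ppm in the exposure chamber, whereas a parallel reference chamber received humidified gas without the analyte. Each setting was run in 3 experiments, so that 9 experiments gave 6 groups of 3 arrays (Affymetrix Human Genome U133 Plus 2.0, 1 array for each chamber and experiment): exposure and reference chamber at 0 ppm, at 0.1 ppm and at 0.5 ppm. Thus only 2 of the 6 groups met formaldehyde, and the 0 ppm exposure group differed from its reference group by the chamber alone. All groups are the same cell line, and the labels do not say how many cultures stand behind an array. p-values therefore measure the spread between these 3 arrays a group.

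Phosphatidylcholine, the main phospholipid of animal membranes and of lung surfactant, is built in the CDP-choline (Kennedy) pathway: choline enters the cell, is phosphorylated, activated with CTP and joined to diacylglycerol. Diacylglycerol also stands at the fork to storage fat. It arises when glycerol phosphate is acylated to phosphatidic acid and dephosphorylated, can be turned back to phosphatidic acid by diacylglycerol kinases, and is esterified a last time to give triglycerides. Alveolar type II cells, of which A549 is used as a model, make surfactant phosphatidylcholine by these steps.

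Values are MAS5 signals, the deposited measure of brightness of a probe set, and the trimmed mean of all probe sets was 500 on every array. The median signal per array lay between 26.7 and 34.0. Epithelial markers KRT8, KRT18, KRT19, EPCAM and CDH1 lay at percentiles 59.1 to 99.4 of all probe sets by mean signal. Of 6 measured alveolar type II markers, 4 were above the median probe set (percentiles 45.4 to 76.2). The 2 adipocyte markers lay at percentiles 1.00 and 17.3. The 4 fibroblast markers lay at percentiles 31.5 to 74.1, 3 blood cell markers at 1.74 to 63.5 and 3 endothelial markers at 20.0 to 50.7. In each of these last 3 lists 1 marker was above the median probe set. Single markers of other cell types passed the test used below: COL1A2 (log2 fold change 1.98) and COL3A1 (-1.53) at 0.1 ppm against the reference chamber, PTPRC (2.63) and PDGFRB (-1.42) at 0.5 ppm against the reference chamber, and COL1A2 (0.85) at 0.1 ppm against 0 ppm. In these comparisons 2.99% to 3.55% of all genes passed by their brightest probe set. Among the epithelial markers KRT19 passed, higher at 0.1 ppm (1.17) and at 0.5 ppm (1.05) than at 0 ppm within the exposure chamber. Their part in the results was not tested. On 2 reference arrays the actin control probe set at the 5′ end of the transcript was low. Its log2 signal was 5.90 on replicate 1 of the 0.1 ppm reference group and 6.85 on replicate 3 of the 0 ppm reference group, against 7.75 to 9.70 on the other 16 arrays. Values without these 2 arrays are given below, singly or as ranges and medians, for the genes that lay outside the range of the other 16.

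Of the 35 genes, 30 had a mean signal above the median probe set. The 5 genes below it were PCYT1B (percentile 36.0), LPIN3 (28.4), MOGAT1 (37.6), MOGAT2 (17.4) and MOGAT3 (8.27). Within the choline branch, the choline transporter-like gene SLC44A1 lay at percentile 96.1 of all probe sets, PCYT1A, whose enzyme activates phosphocholine with CTP and sets the pace of the pathway, at 92.7, and the cholinephosphotransferase CHPT1 at 97.8. In the other branch the highest percentiles were those of AGPAT5, an acyltransferase of lysophosphatidic acid (88.6), and LPIN1, a phosphatidic acid phosphatase (88.3). Percentiles are given as a description, since probe sets of different genes do not share a scale of transcript number.

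**Figure D1:**
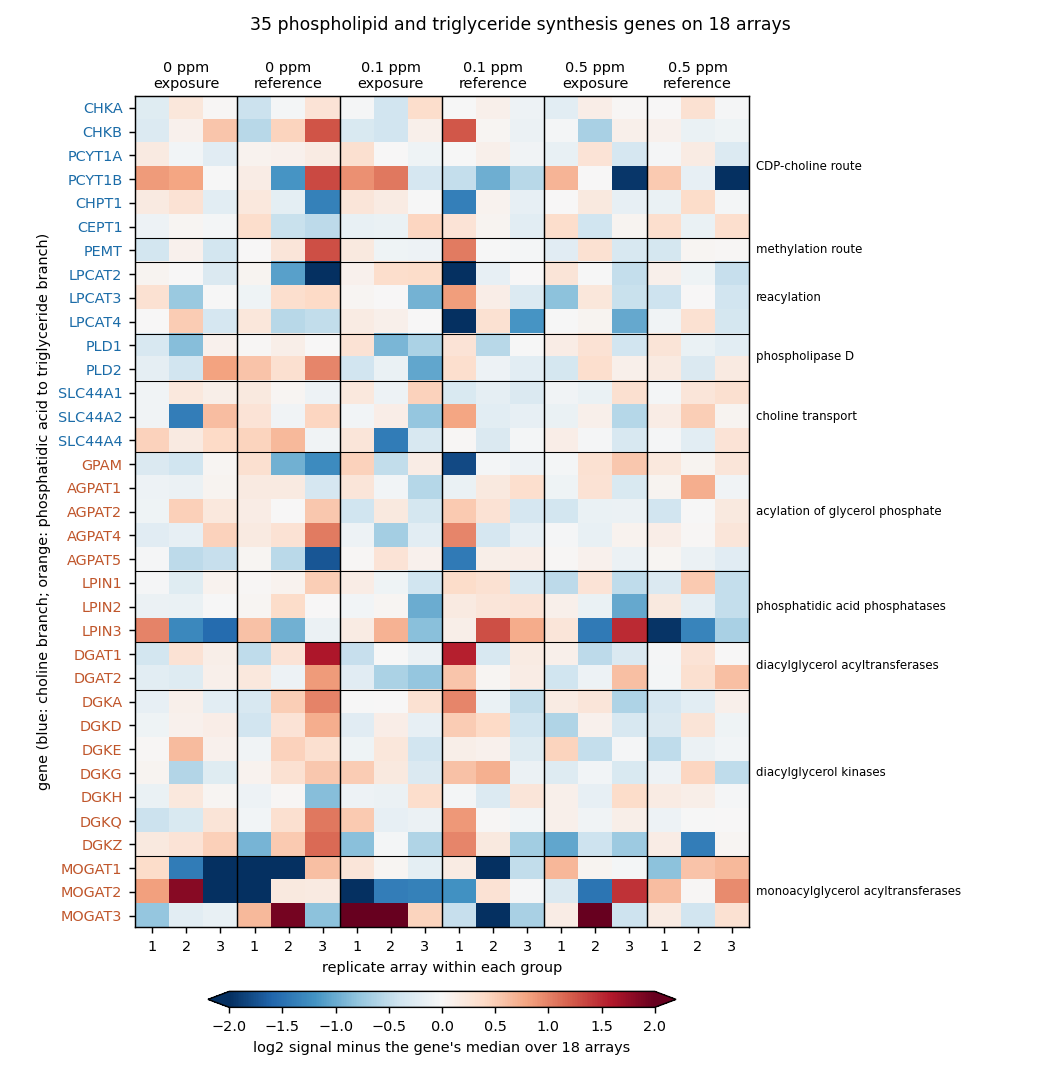
Log2 signal of each of the 35 genes on each of the 18 arrays, as the difference from the gene's median over the 18 arrays (colour scale capped at 2 on either side). Rows are genes ordered by role, columns are the 3 replicate arrays of the 6 groups, with the exposure chamber left of its reference chamber. The columns of 0 ppm reference replicate 3 and 0.1 ppm reference replicate 1 stand apart for 14 genes, and the rows of LPIN3, PCYT1B and the 3 MOGAT genes vary most.

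The steadiest genes of the set were PCYT1A, CHKA and SLC44A1, whose log2 signals had an SD of 0.18, 0.22 and 0.22 over all 18 arrays. PCYT1A ranged between 2181 and 3433 and CHKA, a choline kinase, between 148 and 254. At the other end stood MOGAT2, MOGAT1 and MOGAT3, monoacylglycerol acyltransferases known from the gut and the liver, with SDs of 1.43, 1.40 and 1.34, followed by LPIN3 (1.06) and PCYT1B (1.02). The 5 genes below the median probe set were thus also the 5 that varied most.

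The design gives 5 comparisons of 2 groups, each tested with limma on log2 signals of all probe sets and read at an unadjusted p of 0.05, the study's own threshold. A gene is said to pass where it met that threshold. The study itself counted a transcript only where it passed both against the reference chamber and against 0 ppm, and not between the chambers at 0 ppm. With 3 arrays against 3, an exact permutation test of a single gene cannot go below 0.10, so a pass rests on limma's pooled estimate of the spread. In these 5 comparisons 6 of 175 tests of member genes passed (3.43%), against 3.38% of the same tests over the brightest probe set of every gene. The 6 tests came from 4 genes: PCYT1B in the choline branch, and DGKZ, MOGAT2 and MOGAT3 in the branch to triglycerides. Of these only MOGAT3, at 0.1 ppm, met the study's combined rule, and the share of all genes that met it was not computed. Without the 0 ppm reference array of low actin signal MOGAT3 also passed between the chambers at 0 ppm (log2 fold change -1.65). It then no longer met the rule. The other 31 genes passed in none of 8 fits, that is the 5 comparisons, the tests of chamber differences against each other and a test over all 6 groups. No member passed after Benjamini-Hochberg adjustment over all probe sets in any of the 8 fits, in which 0 of 54675 probe sets passed as well. Among the 30 genes above the median probe set 2 of 150 tests passed (1.33%, against 0.638% of all genes there), and among the 5 below it 4 of 25 (16%, against 7.98%).

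**Figure D2:**
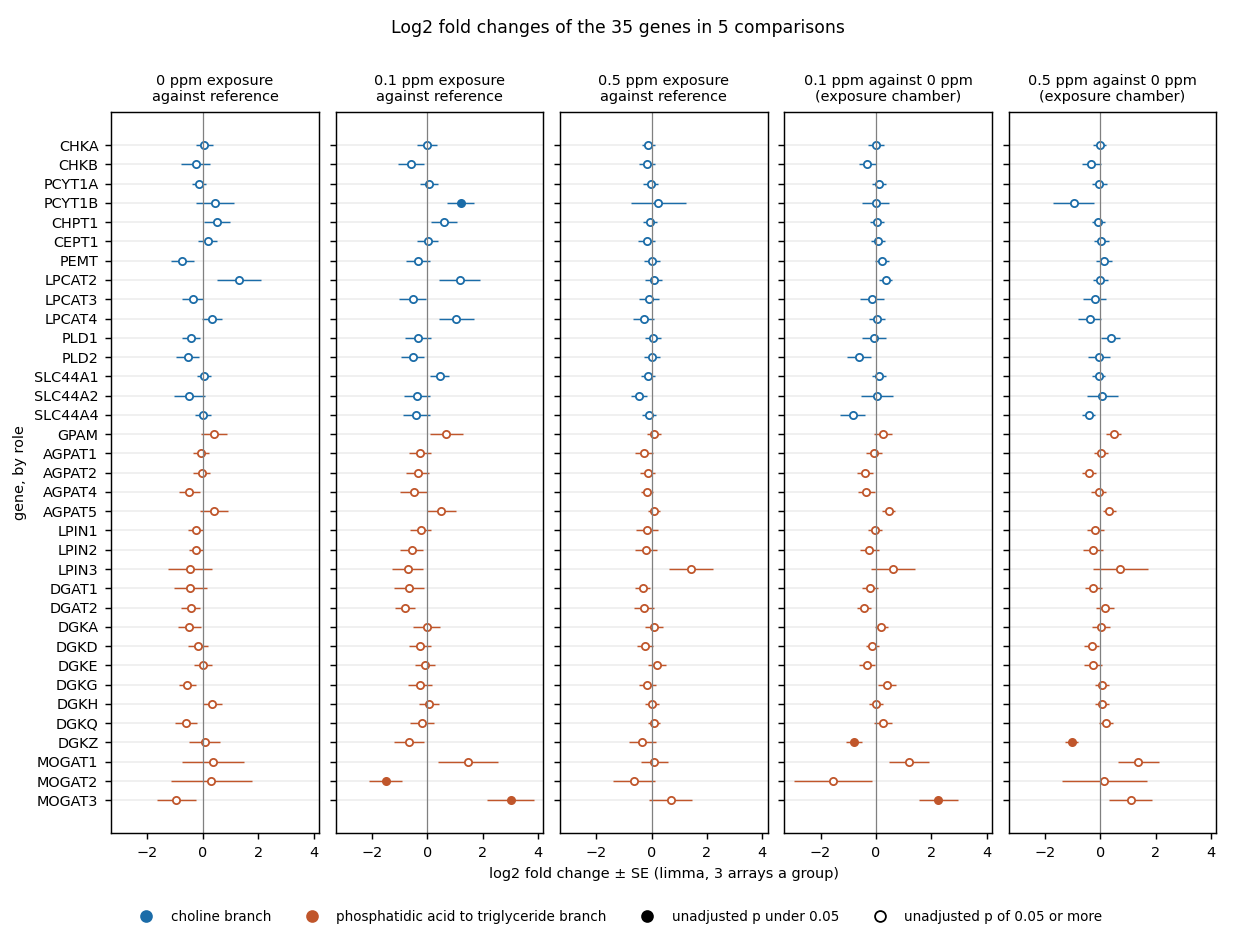
Log2 fold change with its standard error (limma, 3 arrays a group) of the 35 genes in the 5 comparisons, 1 panel each, with genes down the page by role. Filled points passed an unadjusted p of 0.05. There are 6 such points, 3 of them at 0.1 ppm against the reference chamber, and none in the panels of 0 ppm and 0.5 ppm against the reference chamber.

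The first question is what the chamber alone did. With 0 ppm in the exposure chamber, 0 of 35 genes passed the test against the reference chamber (limma, adjusted p = 0.880 or higher for each), where 3.69% of all genes did by their brightest probe set. The median log2 fold change was 0.01 for the choline branch and -0.20 for the branch to triglycerides, against -0.10 over all genes. Groups did not overlap for 2 genes, DGKG and LPIN2, both lower in the exposure chamber, whereas 9.43% of all genes had groups that did not overlap. DGKG, a diacylglycerol kinase, lay between 40.2 and 62.5 in the exposure chamber, against 63.3 to 87.7 in the reference chamber.

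With 0.1 ppm formaldehyde in the exposure chamber, 3 of 35 genes passed the test against the reference chamber, where 2.99% of all genes passed by their brightest probe set. MOGAT3 and PCYT1B were higher and MOGAT2 was lower with formaldehyde. The median log2 fold change was -0.02 for the choline branch and -0.26 for the branch to triglycerides, against -0.09 over all genes. In the branch to triglycerides 5 genes had a positive and 15 a negative fold change, against 8484 and 11291 of all 19775 genes. At 0 ppm against reference, without formaldehyde, 7 genes of this branch had a positive and 13 a negative fold change.

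MOGAT3 signals were 5.01, 10.995 and 1.66 in the 0.1 ppm exposure chamber, against 0.891, 0.248 and 0.782 in its reference chamber, in the order of replicates 1 to 3. The log2 fold change was 3.02 ± 0.84 (SE, 3 arrays each; limma, adjusted p = 0.986). All 3 exposure arrays lay above all 3 reference arrays. The same gene had signals of 0.717, 1.06 and 1.10 in the 0 ppm exposure chamber, against 1.91, 4.60 and 0.690 in the reference chamber, and there the groups overlapped. At 0.5 ppm it had 1.36, 6.54 and 0.920 in the exposure chamber, against 1.37, 0.936 and 1.51 in the reference chamber. A signal of 10.995 is the highest of this probe set on any array and lies below the median signal of 27.5 over all probe sets and arrays. When 32 was added to each signal before the logarithm, which flattens differences between dim values, the log2 fold change was 0.21, the one of 13 alternative fits in which the gene did not pass. The gene has 1 probe set, so the fit of averaged probe sets repeats its values.

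PCYT1B, the other gene for the enzyme that activates phosphocholine with CTP, had signals of 16.6, 18.4 and 6.97 in the 0.1 ppm exposure chamber, against 6.38, 4.47 and 5.99 in its reference chamber. The groups did not overlap, although replicate 3 of the exposure chamber came close to the highest reference array. The log2 fold change was 1.21 ± 0.49 (SE; limma, adjusted p = 0.998), and it did not pass with the experiment as a block. It passed in 1 of 13 alternative fits, the one without replicate 3 of the exposure chamber (log2 fold change 1.66). Without any 1 of the other 5 arrays of the comparison it did not pass, with log2 fold changes between 0.96 (without replicate 2 of the exposure chamber) and 1.31 (without replicate 1 of the reference chamber).

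PCYT1B has 3 probe sets, and they did not move together. Probe set 232553_at had signals of 1.61, 1.78 and 1.27 in the 0.1 ppm exposure chamber, against 17.1, 1.81 and 15.5 in the reference chamber, so that all exposure arrays lay below all reference arrays and one reference array was as low as they were. Its log2 fold change was -2.35 ± 0.90 (SE), which passed, opposite in sign to that of the brightest probe set. The third, 206751_s_at, gave 0.93 ± 0.92. The probe set 232553_at was also lower in the exposure chamber at 0 ppm, without any formaldehyde (-2.07 ± 0.56), and lower at 0.1 ppm than at 0 ppm within the exposure chamber (-1.72 ± 0.52), and both passed. Averaged over the 3 probe sets, PCYT1B had a log2 fold change of -0.07 at 0.1 ppm against the reference chamber.

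**Figure D3:**
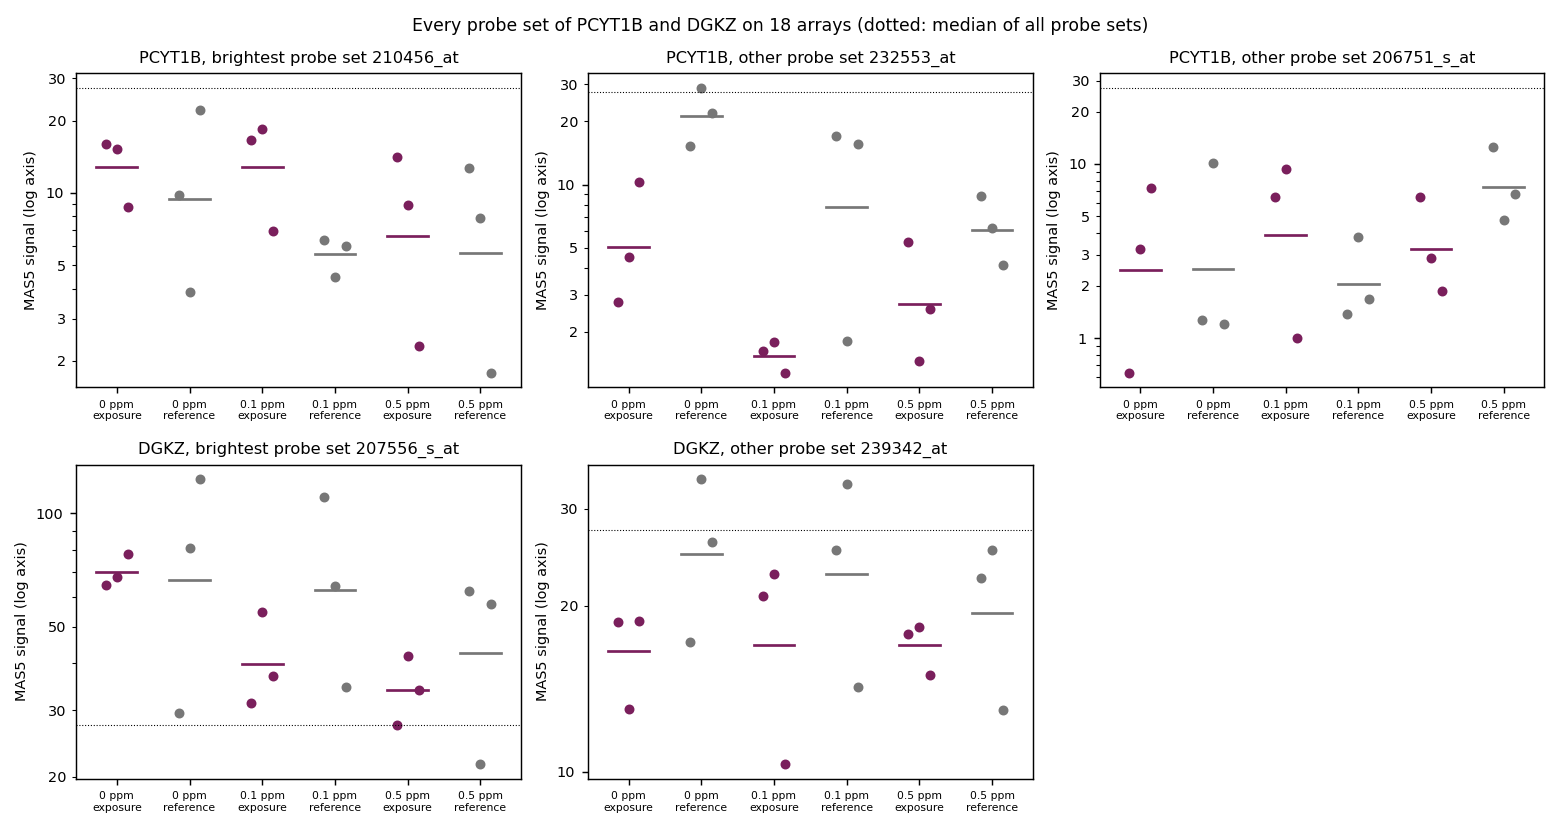
MAS5 signal (log axis) of each probe set of PCYT1B and DGKZ on the 18 arrays. Points are arrays, lines are geometric means of 3 arrays, purple marks the exposure and grey the reference chamber, and the dotted line is the median of all probe sets. In the 0.1 ppm exposure chamber the brightest PCYT1B probe set reads 6.97 to 18.4 and 232553_at reads 1.27 to 1.78, above and below their reference chamber.

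MOGAT2 signals were 0.555, 1.36 and 1.39 in the 0.1 ppm exposure chamber, against 1.53, 4.35 and 3.51 in the reference chamber. The groups did not overlap, by a gap between 1.39 and 1.53. The log2 fold change was -1.49 ± 0.59 (SE; limma, adjusted p = 0.998). In the 0 ppm exposure chamber the same probe set spanned 0.342 to 12.5, wider than both groups of the comparison together. MOGAT2 passed in 3 of 13 alternative fits, with the experiment as a block and, as the same fit under 2 names, without replicate 1 of the reference chamber (log2 fold change -1.94). Without any 1 of the other 5 arrays it did not pass (-1.72 to -1.06), and with 32 added to each signal its log2 fold change was -0.085. The calls of both MOGAT genes thus lie among the dimmest signals of the set, and MOGAT1 (log2 fold change 1.49 ± 1.08) had overlapping groups.

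A further 4 genes had groups that did not overlap at 0.1 ppm against the reference chamber without passing the test, which brought the count to 7 of 35 (7.27% of all genes). Among them SLC44A1 lay between 4640 and 6854 in the exposure chamber, against 4048 to 4391 in the reference chamber (log2 fold change 0.45 ± 0.35). DGAT2, one of the enzymes of the last step of triglyceride synthesis, lay between 41.0 and 60.0 in the exposure chamber, against 72.0 to 103 in the reference chamber (-0.79 ± 0.37). DGAT2 passed in 3 alternative fits, with the share of all genes that passed in brackets. These were only probe sets above the median signal (1.06%), 32 added to each signal (2.59%) and all 18 arrays fitted together (3.62%). SLC44A1 passed with 32 added. LPIN2 spanned 227 to 462 in the exposure chamber, against 507 to 546 in the reference chamber (-0.56 ± 0.41). The fourth, LPCAT2, is described with the 2 arrays of low actin signal.

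With 0.5 ppm formaldehyde, 0 of 35 genes passed the test against the reference chamber (limma, adjusted p = 1.00 for each), where 3.05% of all genes passed by their brightest probe set. The median log2 fold change was -0.09 for the choline branch and -0.14 for the branch to triglycerides, against -0.04 over all genes. No gene of the 35 had groups that did not overlap, against 5.99% of all genes. For the 3 steadiest genes the 95% intervals bounded the difference: the log2 fold change of PCYT1A at 0.5 ppm was -0.03 (-0.71 to 0.66), that of CHKA -0.11 (-0.71 to 0.48) and that of SLC44A1 -0.13 (-0.76 to 0.50). Over the 35 genes the interval reached a median of 0.74 to either side of the fold change, 0.72 for genes above the median probe set and 1.92 for the 5 below it.

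A second pair of comparisons set formaldehyde against 0 ppm within the exposure chamber. They share the 3 arrays of the 0 ppm exposure group, so the values of both are given side by side and not as independent findings. The groups compared come from different experiments, so formaldehyde and differences between experiments cannot be told apart in these comparisons. At 0.1 ppm 2 of 35 genes passed, MOGAT3 and DGKZ, where 3.55% of all genes did by their brightest probe set. At 0.5 ppm 1 of 35 passed, DGKZ, where 3.60% did. The median log2 fold change at 0.1 ppm was 0.03 for the choline branch and -0.06 for the branch to triglycerides, against -0.04 over all genes. At 0.5 ppm it was -0.05 and 0.04, against -0.04.

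DGKZ, a diacylglycerol kinase that turns diacylglycerol into phosphatidic acid, had signals of 31.5, 54.7 and 36.9 at 0.1 ppm and of 27.4, 41.9 and 33.9 at 0.5 ppm, against 64.4, 67.7 and 77.9 at 0 ppm, all in the exposure chamber. Every array with formaldehyde lay below every array at 0 ppm. The log2 fold change was -0.81 ± 0.29 at 0.1 ppm (SE; limma, adjusted p = 1.00) and -1.04 ± 0.25 at 0.5 ppm (adjusted p = 0.808). The reference chambers, which received no formaldehyde, spanned a wider range than these groups: 29.5 to 123 in the 0 ppm experiments, 34.6 to 110 in the 0.1 ppm experiments and 21.6 to 62.3 in the 0.5 ppm experiments. Against its own reference chamber DGKZ did not pass and had overlapping groups at each setting. There its log2 fold change was 0.07 ± 0.56 in the 0 ppm experiments, -0.65 ± 0.53 with 0.1 ppm and -0.33 ± 0.48 with 0.5 ppm formaldehyde. The reference signals of 123 and 110 come from the 2 arrays of low actin signal, and without them the log2 fold change was 0.51 at 0 ppm and -0.24 at 0.1 ppm. The chamber difference at 0.5 ppm minus that at 0 ppm was -0.40 and at 0.1 ppm minus that at 0 ppm -0.72, and neither passed.

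The other probe set of DGKZ, 239342_at, had log2 fold changes of 0.04 ± 0.39 at 0.1 ppm and 0.03 ± 0.25 at 0.5 ppm against 0 ppm, so that the call came from 1 of 2 probe sets. The call at 0.5 ppm passed in 11 of 13 alternative fits, those with each single array left out included (log2 fold changes -1.19 to -0.89). Among the 11 was the replicate block, which is no check here, since between concentrations the number is only a name. The call was lost when both probe sets were averaged (-0.50) and when all 18 arrays shared 1 estimate of spread. The call at 0.1 ppm passed in 5 of 13. Without a single array it held only without replicate 2 of the 0.1 ppm group (-1.03), and without any 1 of the other 5 arrays it did not pass, with log2 fold changes between -0.86 (without replicate 1 of the 0 ppm group) and -0.63 (without replicate 1 of the 0.1 ppm group).

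MOGAT3 at 0.1 ppm against 0 ppm, both in the exposure chamber, had a log2 fold change of 2.26 ± 0.71 (SE; limma, adjusted p = 1.00) with groups that did not overlap. At 0.5 ppm it was 1.10 with overlapping groups (1.36, 6.54 and 0.920 at 0.5 ppm, against 0.717, 1.06 and 1.10 at 0 ppm). The call at 0.1 ppm was lost without replicate 1 of the 0.1 ppm group (2.18), without replicate 1 of the 0 ppm group (2.06) and with 32 added to each signal (0.19).

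**Figure D4:**
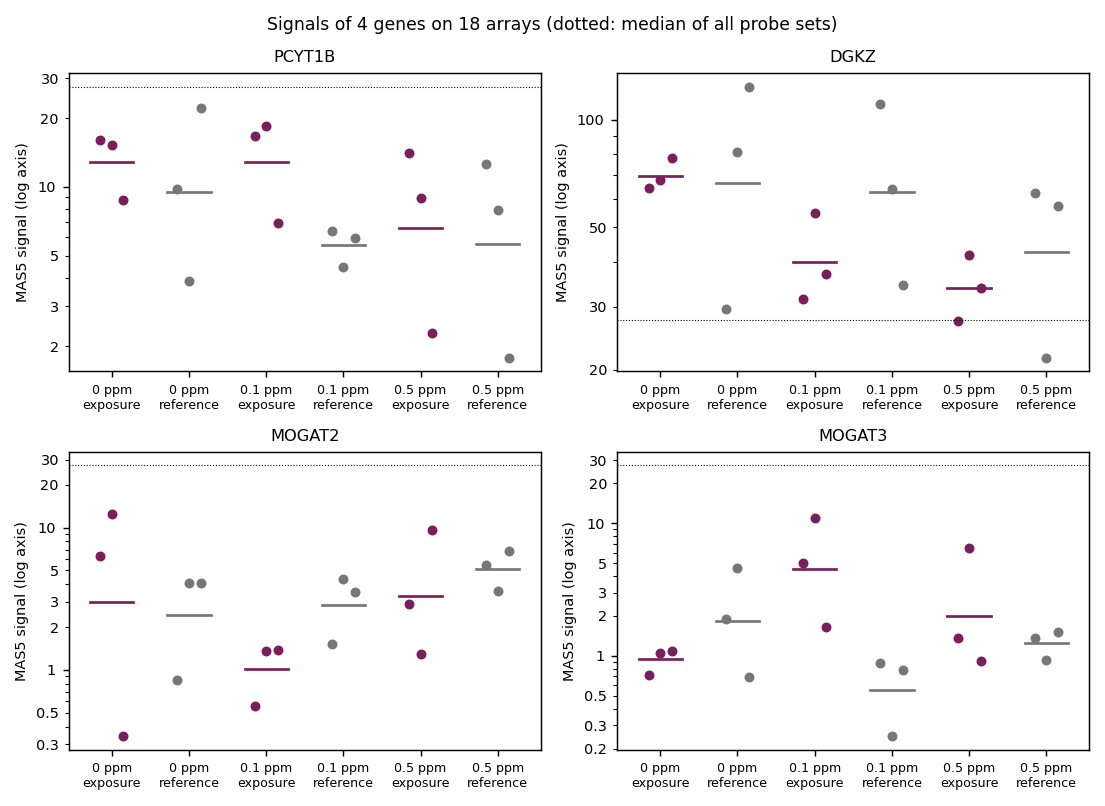
MAS5 signal (log axis) of the 4 genes that passed the test in at least 1 fit, on each array of the 6 groups, with the exposure chamber left of its reference chamber. Points are arrays in the order of replicates 1 to 3, lines are geometric means, and the dotted line is the median of all probe sets. DGKZ reads 27.4 to 54.7 on all exposure arrays with formaldehyde and 64.4 to 77.9 on those at 0 ppm, and PCYT1B, MOGAT2 and MOGAT3 stay below the dotted line on all 18 arrays.

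Groups did not overlap for 4 of 35 genes at 0.1 ppm against 0 ppm within the exposure chamber (8.28% of all genes) and for 3 of 35 at 0.5 ppm (8.25%). Besides DGKZ and MOGAT3, these were LPCAT2 and AGPAT5, higher at 0.1 ppm, and SLC44A4 and AGPAT2, lower at 0.5 ppm, none of which passed the test. AGPAT5 lay between 1815 and 2171 at 0.1 ppm, against 1248 to 1773 at 0 ppm (log2 fold change 0.46 ± 0.25). SLC44A4, a choline transporter-like protein, lay between 36.7 and 49.97 at 0.5 ppm, against 51.9 to 63.1 at 0 ppm (-0.42 ± 0.23). With 32 added to each signal LPCAT2 and AGPAT5 passed at 0.1 ppm and SLC44A4 at 0.5 ppm, and AGPAT5 also passed with eBayes with trend, a fit whose estimate of spread depends on the mean signal.

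Whether the chamber difference itself changed with formaldehyde was tested by subtracting the chamber difference at 0 ppm. For 0.1 ppm, MOGAT3 passed (3.97 ± 1.18, SE over 12 arrays; limma, adjusted p = 1.00), 1 of 35 genes, where 2.49% of all genes passed. For 0.5 ppm, 0 of 35 passed, where 2.88% of all genes did. In the test over all 6 groups MOGAT3 passed (moderated F = 2.96, adjusted p = 1.00), again 1 of 35, where 3.23% of all genes passed.

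By role, the genes of the CDP-choline route other than PCYT1B were the choline kinases CHKA and CHKB, PCYT1A, CHPT1 and the choline and ethanolamine phosphotransferase CEPT1. Over the 5 comparisons their log2 fold changes lay between -0.58 (CHKB, 0.1 ppm against reference) and 0.61 (CHPT1, same comparison). Both ends rest on 1 array of low actin signal, replicate 1 of the 0.1 ppm reference group, without which CHKB was at -0.15 and CHPT1 at 0.17. PEMT, which methylates phosphatidylethanolamine to phosphatidylcholine, lay between -0.73 (0 ppm against reference, -0.34 without the array of low actin signal) and 0.22. Phospholipases D1 and D2, which release choline from phosphatidylcholine, lay between -0.60 and 0.38. None of these 8 genes passed in any fit. Beside SLC44A1 and SLC44A4, the third choline transporter-like gene SLC44A2 lay between -0.49 and 0.07. Among the enzymes that reacylate lysophospholipids, LPCAT3 lay between -0.53 and -0.09, and LPCAT4 between -0.39 (0.5 ppm against 0 ppm) and 1.06 (0.1 ppm against reference). Without the array of low actin signal the value of LPCAT4 was 0.53, and LPCAT4 passed with all 18 arrays in 1 fit and without replicate 2 of the reference group.

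Among the acyltransferases that load glycerol phosphate and lysophosphatidic acid, GPAM, AGPAT1, AGPAT2, AGPAT4 and AGPAT5, log2 fold changes lay between -0.49 (AGPAT4) and 0.69 (GPAM), both at 0.1 ppm against reference. Without the array of low actin signal these were -0.078 for AGPAT4 and 0.11 for GPAM. AGPAT4 was lower in the exposure chamber than in the reference chamber of the same experiment in all 9 experiments, those at 0 ppm included, by differences between -1.08 and -0.04 on the log2 scale. LPIN1 was likewise lower in all 9, by -0.43 to -0.02. These 2 of 35 genes stand beside 1.78% of all genes that were lower in all 9 experiments, no member was higher in all 9 (0.556% of all genes), and neither gene passed the test at any setting. DGAT2, LPIN2, DGKG and PLD2 were lower in 8 of the 9 experiments (6.58% of all genes), and PCYT1B was higher in 8 (3.00%). Of the 3 phosphatidic acid phosphatases, LPIN3 had log2 fold changes between -0.71 (0.1 ppm against reference) and 1.41 (0.5 ppm against reference). The diacylglycerol kinases other than DGKZ lay between -0.60 (DGKQ, 0 ppm against reference, -0.29 without the array of low actin signal) and 0.39 (DGKG, 0.1 ppm against 0 ppm), and none of them passed.

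The 2 reference arrays of low 5′ actin signal stood outside the range of the other 16 arrays for 14 of the 35 genes, above it for 10 and below it for 4. Over all genes both arrays lay above the others for 20.0% and below them for 12.8%. Above were CHKB, PEMT and LPCAT3 in the choline branch, and AGPAT2, AGPAT4, DGAT1, DGKA, DGKD, DGKQ and DGKZ in the branch to triglycerides. Below were CHPT1, LPCAT2, GPAM and AGPAT5. For DGAT1, the other enzyme of the last step of triglyceride synthesis, the signal was 513 on the 0 ppm reference array and 492 on the 0.1 ppm reference array, while no other array exceeded 206.

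**Figure D5:**
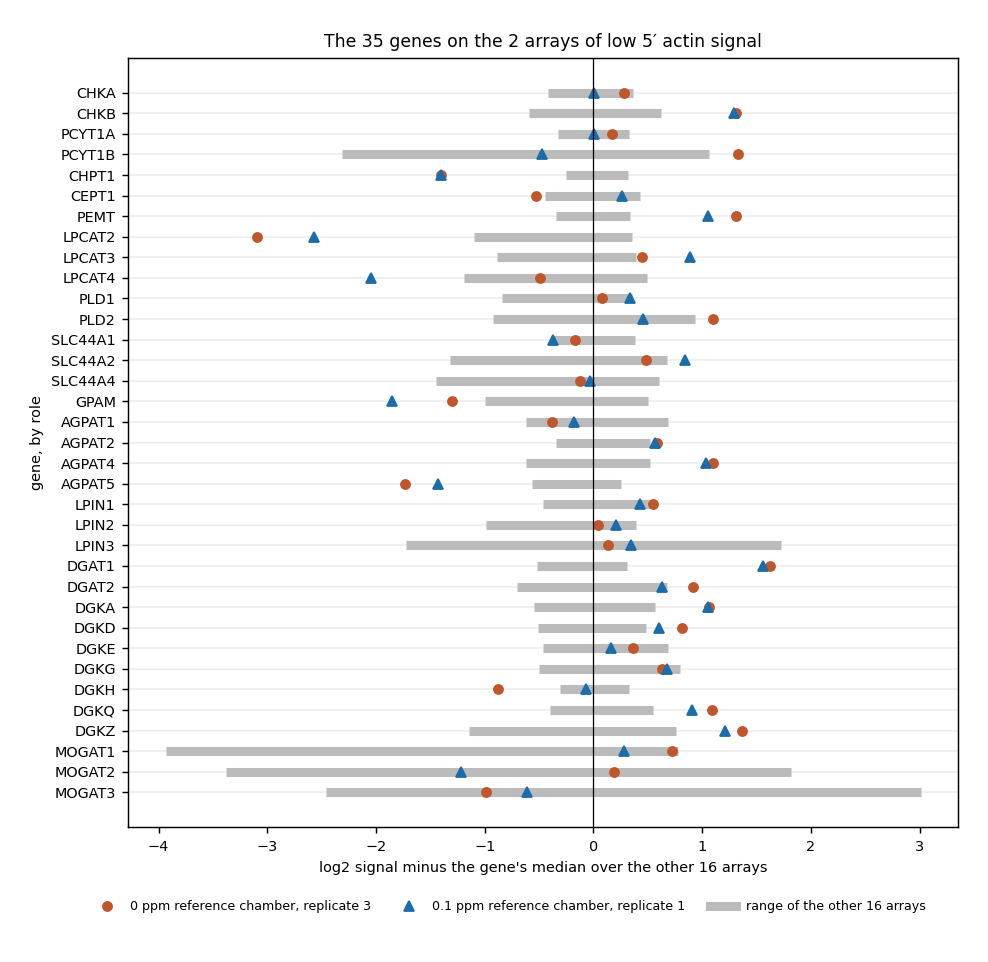
Log2 signal of the 35 genes on the 2 reference arrays of low 5′ actin signal, as the difference from the gene's median over the other 16 arrays, with genes down the page by role. Grey bars span the other 16 arrays. LPCAT2, CHPT1, GPAM and AGPAT5 lie left of their bars on both arrays, and 10 genes, among them DGAT1, CHKB and PEMT, lie right of them.

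Among these 14 genes LPCAT2, which reacylates lysophosphatidylcholine, moved most when the arrays were left out. It had a signal of 37.5 on the 0 ppm and 54.0 on the 0.1 ppm reference array, while all others lay between 150 and 411. Its log2 fold change against the reference chamber was 1.30 ± 0.80 at 0 ppm, 1.18 ± 0.73 at 0.1 ppm and 0.07 ± 0.31 at 0.5 ppm. Without the 2 arrays it was 0.44 at 0 ppm and 0.35 at 0.1 ppm.

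For the 10 genes high on these arrays, the median log2 fold change of the exposure against the reference chamber was -0.41 at 0 ppm and -0.42 at 0.1 ppm, and without the 2 arrays -0.04 and -0.10. For the 4 genes low on them, LPCAT2 among them, it was 0.47 at 0 ppm and 0.65 at 0.1 ppm, and 0.09 and 0.14 without them. Over the 10 genes the values at 0.1 ppm lay between -0.66 (DGAT1) and -0.016 (DGKA), and without the array between -0.24 (DGKZ) and 0.42 (DGKA). Over the 4 genes they lay between 0.51 (AGPAT5) and 1.18 (LPCAT2), and without it between 0.00035 (AGPAT5) and 0.35 (LPCAT2). DGAT1 was at -0.45 at 0 ppm and -0.66 at 0.1 ppm, and without the arrays at 0.13 and -0.11. In the branch to triglycerides 7 genes were high and 2 low on these arrays, in the choline branch 3 were high and 2 low. The median of the branch to triglycerides at 0.1 ppm against reference, -0.26 with all arrays, was -0.09 without replicate 1 of the reference group. No cause of the low actin signal was tested. DGKZ belongs to the 10, and its comparisons within the exposure chamber do not use these arrays.

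The other probe sets of the 35 genes, 53 in number, gave the same sign as the brightest one in 35, 35 and 22 cases for the comparisons with the reference chamber at 0, 0.1 and 0.5 ppm, and in 30 and 28 cases for 0.1 and 0.5 ppm against 0 ppm. In the 5 comparisons between 0 and 2 of the 53 passed, where 3.92% to 4.84% of all probe sets did. Apart from PCYT1B, calls among them were 1 of CEPT1 (236327_at, 1.48 ± 0.55, 0.1 ppm against reference), 1 of DGKQ (207562_at, -1.57 ± 0.49, 0.5 ppm against reference) and 1 of LPIN1 (212272_at, -2.06 ± 0.43, 0.1 ppm against 0 ppm). In none of these did the gene's brightest probe set pass.

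Neighbouring steps of lipid metabolism were read from 3 further lists. Of 12 genes of ethanolamine, serine and inositol phospholipid synthesis 11 were measured and 0 passed in any of the 8 fits. In these fits 2.49% to 3.69% of all genes passed by their brightest probe set. Of 14 further members of the same enzyme families 13 were measured, and only GPAT2, a mitochondrial glycerol phosphate acyltransferase known mainly from the testis, passed. Its log2 fold change was -1.53 ± 0.41 at 0 ppm against reference (limma, adjusted p = 0.787), -0.92 ± 0.31 at 0.5 ppm against reference (adjusted p = 1.00) and 0.74 ± 0.28 at 0.1 ppm against 0 ppm (adjusted p = 1.00). The first and largest of these was between groups without formaldehyde. In each of these comparisons GPAT2 was 1 of 13, where 3.69%, 3.05% and 3.55% of all genes passed. Of 15 genes of lipid droplets and triglyceride breakdown 14 were measured, and 1 passed, at 0.1 ppm against 0 ppm, where 3.55% of all genes did. PNPLA3, a lipase of the lipid droplet, had signals of 21.9, 22.0 and 34.2 at 0.1 ppm, against 5.86, 10.7 and 3.10 at 0 ppm, both in the exposure chamber (2.13 ± 0.51, limma, adjusted p = 0.828). These groups did not overlap. The reference arrays of the 0.1 ppm experiments, without formaldehyde, read 1.66, 21.0 and 16.3, the 1.66 on the array of low actin signal. Those of the 0 ppm experiments read 19.7, 11.8 and 2.25, the 2.25 on the other such array.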

How the data were processed

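Per the labels and the study's methods, RNA of A549 cultures was hybridised to 18 one-colour arrays, and the authors deposited MAS5 signals (computed in R), an intensity per probe set with no counts. The MAS5 version and a genome build are not given in the sources used here. On each array the trimmed mean was 500, and the number of arrays limits the precision. Every column of the deposited table was used (0 left out). Signals were taken to log2 with no further scaling, filter or pseudocount. Probe sets were named through GEO's platform annotation: 41097 name 1 gene, 1801 several and 11777 none, and only the first kind was used.

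Groups were compared with limma (version 3.58.1, R 4.3.3), lmFit and eBayes on the 6 arrays of the 2 groups, two-sided, at an unadjusted p of 0.05 as in the study's methods, with Benjamini-Hochberg adjusted p-values over 54675 probe sets beside it. The script was tested on simulated data. Signals on every array are given for members past this threshold in at least 1 of 8 fits, ranges and counts for the others, and genes of other lists only where they passed. The members and lists were chosen with earlier results of these data known. Array names in the labels share an experiment number between the 2 chambers, which were cultured at the same time, so the replicate number pairs the chambers. Over probe sets above the median, deviations of same-numbered arrays correlated at 0.01 to 0.32 at 0 ppm, 0.01 to 0.49 at 0.1 ppm and 0.41 to 0.46 at 0.5 ppm. Differently numbered arrays of the 2 chambers correlated at -0.34 to 0.10, -0.42 to 0.28 and -0.43 to 0.015 in the same order. Between concentrations the number is only a name. The alternatives were quantile normalization, 32 added to each signal, only probe sets above the median signal, eBayes with trend, averaged probe sets, all 18 arrays in 1 fit, the replicate block, no arrays of low actin signal, and each array left out.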

Additional observations from a re-analysis of the deposited data

Results flagged for a closer look

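MOGAT3 was singled out because its chamber difference at 0.1 ppm differed from that at 0 ppm in the test of the difference itself: 3.97 ± 1.18 on the log2 scale (SE, 12 arrays; limma, adjusted p = 1.00). The exposure chamber lay above the reference chamber in 3 of 3 experiments at 0.1 ppm and in 1 of 3 at 0 ppm. In 18 of 19 alternative fits it passed at an unadjusted p of 0.05, and with 32 added to each signal it did not (0.27). MOGAT3 has 1 probe set, so the fit of averaged probe sets repeats its values and is no check. Its call over all 6 groups held in 7 of 23 alternative fits. Without the array of low actin signal MOGAT3 also passed at 0 ppm against reference, lower in the exposure chamber (-1.65). All 12 signals of this probe set lay between 0.248 and 10.995, below the median of 27.5 over all probe sets.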

How the results depend on the processing

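The counts of the 35 genes past an unadjusted p of 0.05 and the branch medians depended on the setting as follows. The cause was not tested except where a setting tests fewer genes or arrays. With only probe sets above the median signal, 30 of the 35 genes were tested. PCYT1B, LPIN3 and the MOGAT genes were left out of that setting and could not pass in it. Percentages are the shares of all genes, by their brightest probe set, that passed in the same fit. In the fit of averaged probe sets only the 35 genes were averaged, and the other genes kept their brightest probe set. At 0 ppm against reference, 1 gene passed with 32 added to each signal (DGKG, 4.19%). Without the 2 arrays of low actin signal 1 gene passed (MOGAT3, lower in the exposure chamber at -1.65, 3.57%). At 0.1 ppm against reference the count was 1 (MOGAT3) under quantile normalization (2.91%), with eBayes with trend (2.12%) and with probe sets averaged (2.98%). It was 1 with only probe sets above the median signal (DGAT2, 1.06%) and 2 with 32 added (SLC44A1 and DGAT2, 2.59%). With all 18 arrays in 1 fit it was 3 (LPCAT4, DGAT2 and MOGAT3, 3.62%). PCYT1B turned to -0.067 there with its probe sets averaged. At 0.1 ppm against 0 ppm the count was 3 with 32 added (LPCAT2, AGPAT5 and DGKZ, 4.24%) and 3 with trend (AGPAT5, DGKZ and MOGAT3, 3.68%). It was 1 with only probe sets above the median (DGKZ, 2.81%). MOGAT3 alone passed with probe sets averaged (3.55%) and with the replicate block (3.75%), where the number is only a name. At 0.5 ppm against 0 ppm the count was 3 with 32 added (SLC44A4, GPAM and DGKZ, 4.39%) and 2 with trend (GPAM and DGKZ, 3.49%). It was 0 with probe sets averaged (3.60%) and 0 with all 18 arrays in 1 fit (2.57%). For the chamber difference at 0.1 ppm against that at 0 ppm it was 0 with 32 added (1.47%). It was 0 with only probe sets above the median (0.371%). For that at 0.5 ppm it was 1 without the low actin arrays (MOGAT3, 2.80%). Over the 6 groups it was 0 under quantile normalization (3.16%), with 32 added (3.51%), with only probe sets above the median (2.01%) and with trend (2.98%). It was 2 with probe sets averaged (LPCAT4 and MOGAT3, 3.24%) and 2 without the low actin arrays (MOGAT1 and MOGAT3, 3.07%).

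With probe sets averaged, the choline branch median was -0.23 at 0 ppm against reference, -0.16 at 0.1 ppm against reference and 0.047 for the chamber difference at 0.5 ppm against that at 0 ppm. It was -0.17 at 0.1 ppm against reference with only probe sets above the median. The median of the branch to triglycerides was -0.092 at 0.1 ppm against reference without the low actin arrays, and at 0.5 ppm against reference -0.057 under quantile normalization and -0.069 with 32 added.

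With each array left out in turn, the counts ranged between 0 and 3 at 0 ppm against reference. The 3 passed without replicate 1 of the reference chamber (LPCAT2, GPAM and DGKA), where 7.21% of all genes passed. Without any other array 3.44% to 3.88% of all genes did. At 0.1 ppm against reference the counts were 1 or 2 (3.05% to 3.42%), and at 0.5 ppm 0 or 1. The 1 gene at 0.5 ppm was LPIN3 without replicate 2 of the exposure chamber (3.40%) or MOGAT2 without its replicate 3 (3.30%). It was DGKZ without replicate 2 of the reference chamber (3.42%). Counts ranged between 1 and 2 at 0.1 ppm against 0 ppm (3.31% to 4.18%). They did so at 0.5 ppm against 0 ppm too (3.51% to 4.47%). They ranged between 1 and 2 for the chamber difference at 0.1 ppm (2.28% to 2.78%). For that at 0.5 ppm they ranged between 0 and 2 (2.68% to 4.83%), and over the 6 groups between 0 and 1 (2.82% to 4.56%). The choline branch median ranged between -0.15 and -0.017 at 0 ppm against reference, -0.18 and 0.10 at 0.1 ppm, -0.14 and 0.036 at 0.5 ppm, -0.011 and 0.099 at 0.1 ppm against 0 ppm, -0.10 and 0.00057 at 0.5 ppm against 0 ppm, and -0.074 and 0.20, and -0.10 and 0.074, for the chamber differences at 0.1 and 0.5 ppm. The median of the branch to triglycerides ranged between -0.39 and -0.094, -0.48 and -0.092, -0.13 and 0.033, -0.086 and 0.086, -0.013 and 0.056, -0.20 and 0.054, and -0.11 and 0.23 in the same order.

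With the replicate block, 2 genes passed at 0.1 ppm against reference (MOGAT2 and MOGAT3, where 3.24% of all genes passed) and PCYT1B did not. DGKZ at 0.1 ppm against 0 ppm, where the number is only a name, did not pass, and the block changed no other call. With 3 arrays a group, 95% intervals of genes below the median signal spanned about 1.43 to 1.96 on either side of the fold change on the log2 scale (medians over the 5 comparisons), which limits what can be said of PCYT1B, LPIN3 and the MOGAT genes.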
